A study of Mus musculus with 8 samples.

Results

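The cytosolic ribosomal protein genes encode the proteins of the ribosome that translates nuclear-encoded mRNAs. They were taken as the protein-coding genes whose symbol starts with Rpl or Rps followed by a digit, together with Rpsa, Rplp0, Rplp1 and Rplp2, leaving out the Rps6k kinases, Rps19bp1, Rpl7l1, Rpl22l1 and Rpl39l. This gave 88 of the 45706 genes in the count tables, on 20 chromosomes. Of these, 77 are the standard ribosomal proteins, 7 are near-copies whose symbol marks them as such (Rpl10-ps3 and Rps27rt among them), and 4 are paralogs (Rpl3l, Rpl10l, Rpl36al and Rps27l). RNA-Seq had been performed on crypts, the epithelial glands that hold the stem and progenitor cells of the gut, freshly isolated from the gut of wild type C57BL/6N mice, with libraries from the small intestine (SI) and from the colon (COL). Donor mice 1 and 5 were female and donor mice 2 and 3 were male, and their age is not given in the sources used here. Each tissue of each mouse was sequenced as its own library (SI1 and COL1 from mouse 1, SI4 and COL4 from mouse 5). The isolation protocol, written for organoid cultures, uses the proximal SI with its villi scraped off and exposes colon to EDTA for longer and at a higher concentration than SI.

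A ribosome is built from a small subunit, which holds the decoding site, and a large subunit, which holds the peptidyl transferase centre and the exit tunnel. Its proteins are needed in nearly equal numbers, and their genes are transcribed at high and coordinated rates in growing cells. Most ribosomal protein mRNAs start with a C followed by a run of pyrimidines, the terminal oligopyrimidine (TOP) tract, through which their translation responds to mTOR signalling. In the gut epithelium, ribosome production is highest in the dividing cells of the crypt and declines as cells differentiate.

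The sequences around the annotated transcript starts were searched for such a tract. The search depends on the annotated start and cannot show which mRNAs carry a tract. RefSeq promoters (GRCm38.p6, 250 bases before and 50 after the start) were matched for 62 of the 88 members. A tract was defined as a C followed by at least 4 letters that are each C or T, on the transcribed strand, with its first base within 5 bases of the annotated start. The windows below hold 15 bases before the start and 15 from it, with the tract in capitals. The first 5 members have a tract at or next to the start, Rpl37 and Rps28 are the standard members with the largest tissue difference, and Rps27l and Rpl36al are paralogs whose ratio to their partner is described further on.
Rplp2 (chr7:141447636-141447665, plus strand): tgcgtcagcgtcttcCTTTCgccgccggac
Rps27 (chr3:90213634-90213663, minus strand): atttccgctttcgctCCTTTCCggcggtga
Rps15a (chr7:118116133-118116162, minus strand): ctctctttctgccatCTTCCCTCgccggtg
Rpl35a (chr16:33056467-33056496, plus strand): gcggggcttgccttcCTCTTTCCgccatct
Rpl27a (chr7:109519180-109519209, plus strand): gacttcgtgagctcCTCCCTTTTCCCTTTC
Rpl37 (chr15:5116598-5116627, plus strand): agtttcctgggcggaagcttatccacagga
Rps28 (chr17:33824548-33824577, minus strand): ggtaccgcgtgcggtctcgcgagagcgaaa
Rps27l (chr9:66946071-66946100, plus strand): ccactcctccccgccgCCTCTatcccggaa
Rpl36al (chr12:69184053-69184082, minus strand): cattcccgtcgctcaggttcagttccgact
No tract by this definition lay at the annotated start of Rpl37, Rps28 or Rpl36al, while Rps27l had a short tract. The Rpl37 window, placed by RefSeq, ends before the GENCODE start of the gene (chr15:5116645). Over all matched members, 29 of 62 (46.8%) had a tract, against 5718 of 27025 genes (21.2%) with a promoter in the same table. The letters CGGAAGT, a sequence bound by ETS family factors, occurred on either strand in the promoter of 22 of 62 members (35.5%) and in 7.20% of all genes. Both motifs were chosen after the sequences had been seen, and a match is a description of the letters, not of a used site.

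Ribosomal protein transcripts were more abundant in COL than in SI crypts. In edgeR's quasi-likelihood test, 42 of the 83 members that passed the filter on low counts were called higher in COL (adjusted p below 0.05), which is 50.6% against 12.9% of all 14491 genes tested. None were called higher in SI, where 15.5% of all genes tested were called, and this count of 0 also held at an unadjusted p under 0.05, in DESeq2 and in limma-voom. The log2 fold change of SI against COL was below 0 for 82 of the 83 members, against 7735 of the 14491 genes tested. Its median was -1.15 over the members (2.22-fold higher in COL) and -0.09 over all genes tested. With the donor mouse as a block, 23 members were called, all of them among the 42, and the median was -1.20. In that fit 12.8% of all genes tested were called higher in COL. Of the members described below, Rps2, Rpl5, Rpl8, Rpl38, Rps4x and Rps27rt were past the threshold without the block and not with it (edgeR adjusted p with the block 0.0710, 0.0647, 0.0786, 0.0808, 0.0515 and 0.0501, respectively). At an unadjusted p under 0.05, 73 members were higher in COL. Over all 14491 genes tested, 5773 were past that level in either direction, of which 2991 were higher in SI. Since these are bulk libraries, fewer cells of a type and less RNA per cell cannot be told apart.

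Taken as a share of all counts, the 88 members held 0.583%, 1.40%, 1.62% and 1.17% of SI1 to SI4, and 5.22%, 2.07%, 5.19% and 5.28% of COL1 to COL4. Every COL library lay above every SI library, and COL2 stood nearest to SI. The mean was 1.19% ± 0.446 (SD, n = 4) in SI and 4.44% ± 1.58 in COL, a 3.72-fold difference. Outside the mitochondrially encoded genes, the share was 0.613% to 2.10% in SI and 4.20% to 7.14% in COL, and the ratio of the means was 3.79. In CPM scaled by TMM, edgeR's correction for differences in RNA composition, the summed level was 8020 to 20327 in SI and 20500 to 39980 in COL, and the ratio was 2.18. The size of the difference thus depended on the scaling, and the direction was shared by all of these measures.

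**Figure D1:**
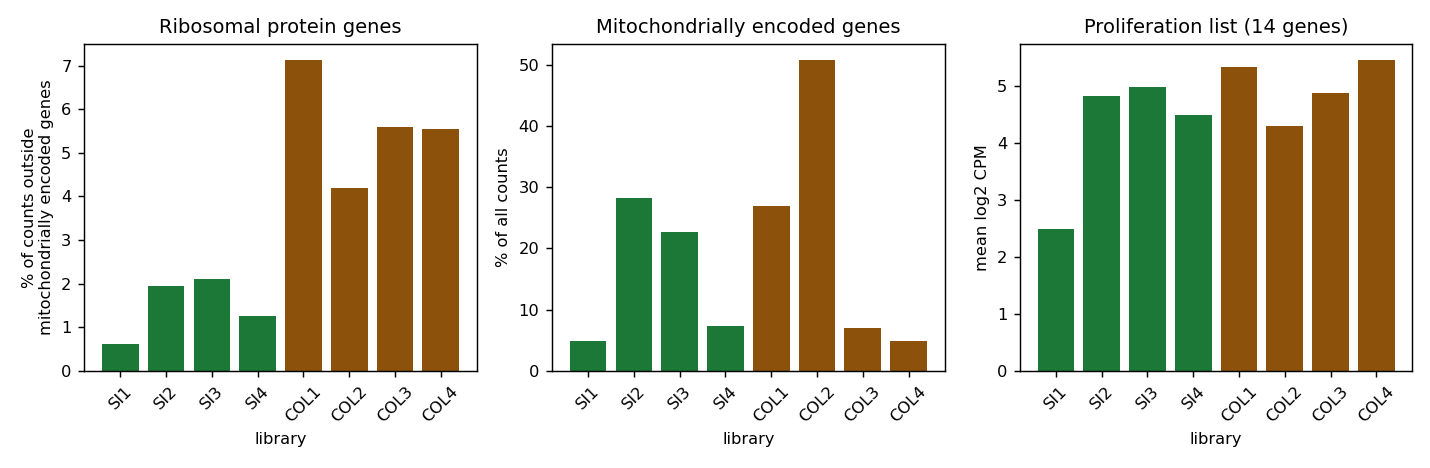
Bars give, for each of the 4 SI (green) and 4 COL (brown) libraries, the share of counts held by the 88 ribosomal protein genes outside mitochondrially encoded genes (%), the share of all counts from mitochondrially encoded genes (%) and the mean log2 CPM of 14 proliferation genes. The ribosomal protein share is 0.613% to 2.10% in SI and 4.20% to 7.14% in COL, while the mitochondrial share varies from 4.83% to 50.8% within the COL libraries and SI1 stands lowest for proliferation genes.

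The libraries differed in ways that moved with this result. SI1 was the lowest SI library for 80 of the 83 members tested (all but Rpl10-ps3, Rpl36al and Rps27l), and SI3 was the highest for 72. COL2 was the lowest COL library for 76 members. Total counts were 15969428 to 32908060, and the mitochondrial share of counts was 4.84% to 28.3% in SI and 4.83% to 50.8% in COL, with COL2 the highest. The mean log2 CPM of the proliferation genes was 2.49 in SI1, 4.49 to 4.97 in the other SI libraries and 4.30 to 5.46 in COL, and 0 of these 14 genes were called in edgeR. The 4 stem cell markers summed to 12.3 CPM in SI1, 188 to 290 in the other SI libraries and 27.0 to 34.6 in COL. Olfm4 held most of the sum in each SI library and had at most 3.50 CPM in COL, with 0 counts in COL1. Lgr5 was at 0.634 CPM in SI1, 5.81 to 11.2 in the other SI libraries and 11.5 to 16.1 in COL, and Ascl2 had 0 counts in SI1. The 4 enterocyte markers summed to 25554 CPM in SI1, 8629 to 15428 in the other SI libraries and 6.75 to 34.6 in COL, and those of Paneth cells to 549 CPM in SI1 against 1645 to 3816 in the other SI libraries. The 4 epithelial markers summed to 6165 to 11441 CPM in SI and 2780 to 7101 in COL, so that markers of the labelled epithelium were present in each library. The 4 goblet cell markers summed to 2064 to 7160 CPM in SI and 10682 to 18740 in COL. Of these, 1 was called higher in COL (Muc2), and Tff3 and Fcgbp had log2 fold changes above 0. Colonocyte markers summed to 304 to 695 CPM in SI and 4486 to 31752 in COL, with 3 of 4 called higher in COL. Leukocyte markers summed to 80.8 to 284 CPM in SI and 11.3 to 43.8 in COL, and those of stroma and muscle to at most 11.1 CPM in any library. The part of these differences in the ribosomal protein result was not tested beyond the fits given next.

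Leaving out SI1 lowered the count of members called in edgeR from 42 to 3 (Rpl27a, Rpl37 and Rps28) and the median log2 fold change to -0.90. Leaving out SI4 gave 5 members (Rpl30, Rpl37, Rpl37a and Rps28 among them), SI2 19, COL1 8, COL3 13 and COL4 17. In contrast, leaving out COL2 gave 69 and SI3 40. Over all genes tested, the share called higher in COL was 10.3% without SI1, 14.3% without SI2, 10.8% without SI3 and 9.55% without SI4. It was 9.52% without COL1, 13.8% without COL2, 10.3% without COL3 and 10.2% without COL4. The share of members called was thus below that of all genes without SI1 or SI4 and near it without COL1. The median stayed between -0.90 and -1.34 in all 8 of these fits. With SI1 and COL2 both left out, 56 members were called (13.4% of all genes tested) with a median of -1.10. With the mean of the proliferation genes as a covariate, 3 members were called (Rpl27a, Rpl37 and Rps28) and the median was -0.78. In that fit 9.59% of all genes tested were called higher in COL, a larger share than that of the members. With the mitochondrial share as a covariate, 68 members were called (16.8% of all genes tested) with a median of -1.17. The 2 SI and 2 COL libraries with a mitochondrial share under 10% gave 73 calls (18.3% of all genes tested) and a median of -1.71. The 2 SI and 2 COL libraries with a higher share gave 1 call (Rps2) and a median of -0.74. Among those libraries 5.76% of all genes tested were called higher in COL, again a larger share than that of the members. The number of members past the threshold therefore changed with single libraries and with these covariates, while the median was below 0 in each of these fits.

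Within mice, the median SI minus COL difference over the 83 members in log2 CPM was -2.27 in mouse 1, -0.30 in mouse 2, -0.93 in mouse 3 and -1.29 in mouse 5. The median over all genes tested lay between -0.17 and 0.09 in the same 4 mice. SI was lower for 81, 67, 82 and 81 of the 83 members in these mice, and 66 members were lower in SI in all 4. Mouse 2, the donor of COL2, thus showed the smallest difference and mouse 1, the donor of SI1, the largest. Every SI library lay below every COL library for 36 of the 83 members (43.4%), against 15.7% of all genes tested. No member's tissue difference was called as differing between female and male mice by edgeR's interaction term, with 0 of 83 at an unadjusted p under 0.05 against 761 of the 14491 genes tested, of which 0 passed the adjusted threshold. The median of the fitted interaction, male minus female, was 0.99 over the members and 0.05 over all genes tested, and with 2 mice of each sex the sexes cannot be told apart from single mice.

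**Figure D2:**
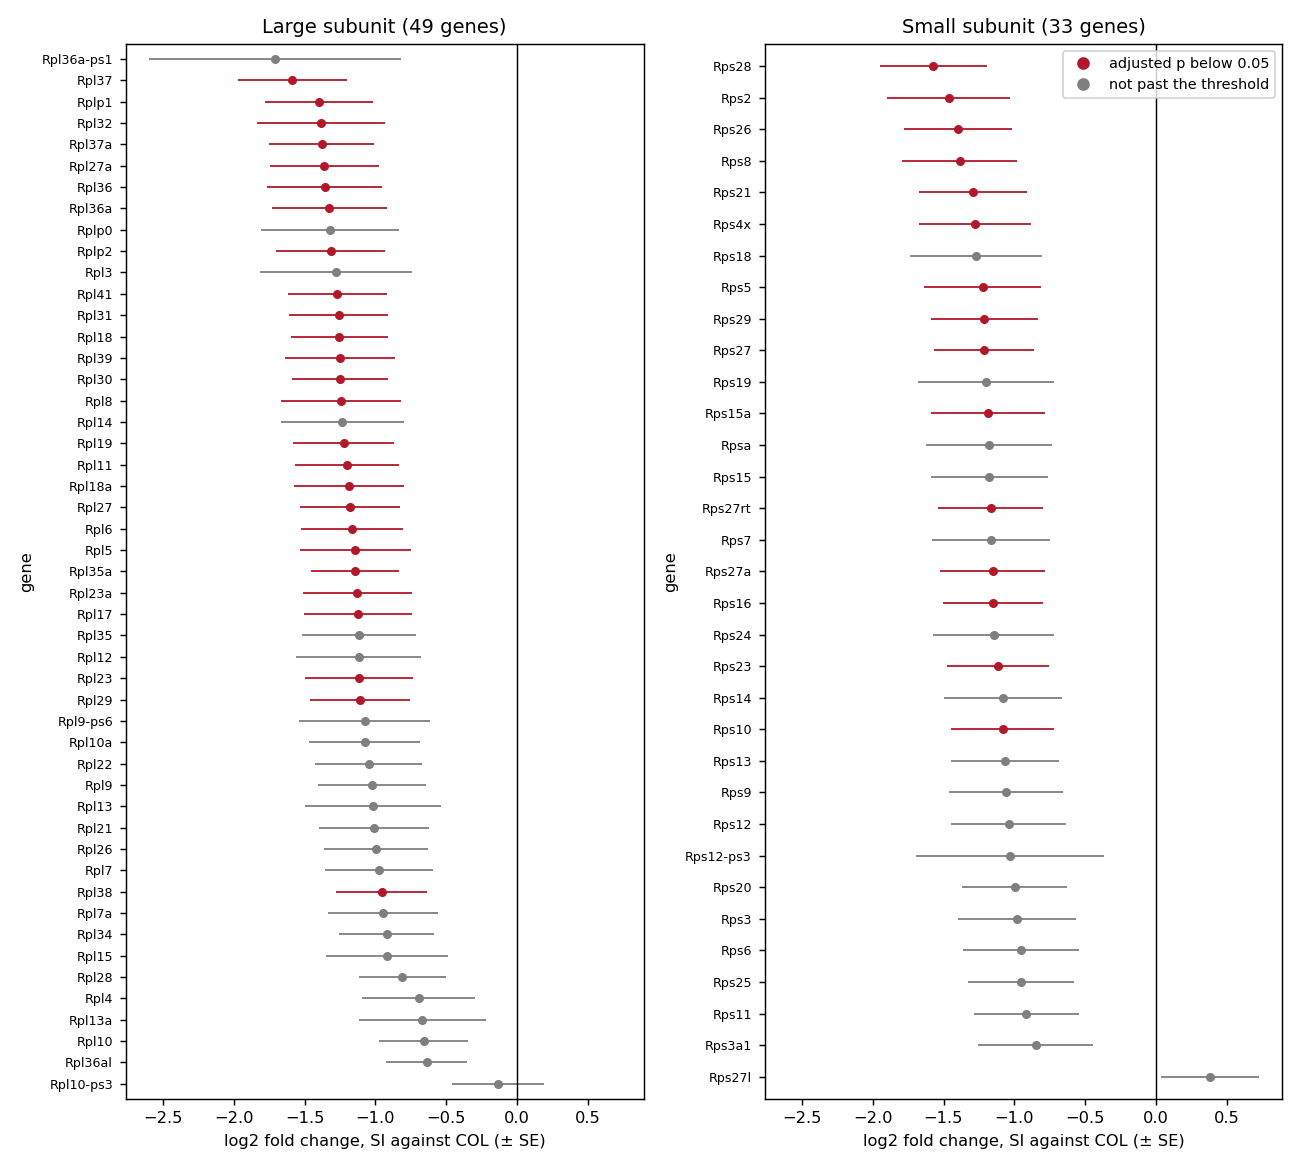
Points give the log2 fold change of SI against COL with its standard error for the 49 large subunit genes tested and 33 of the 34 small subunit genes tested, in red where the adjusted p was below 0.05. All points except Rps27l lie below 0, with the middle 50% of the 83 genes tested between -1.26 and -1.02.

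The members shifted by similar amounts. The middle 50% of the 83 log2 fold changes lay between -1.26 and -1.02, compared with a median standard error of 0.385 for a single member. Among the 76 standard members tested, the values ran from -1.59 to -0.66, and 70 of them differed from the standard median of -1.16 by less than their own standard error. These standard errors include spread between libraries that moved most members together, so they do not measure how far members differ from each other. Of the 45 standard large subunit genes, 26 were called higher in COL with a median of -1.14, and of the 31 standard small subunit genes, 15 with a median of -1.16. Per kilobase of the principal transcript, the median level of the standard members was 185 CPM in SI and 440 CPM in COL. On this scale Rps27, Rplp0, Rpl36 and Rps14 stood highest in COL at 1342, 1295, 1241 and 1232 CPM per kb, and Rps15a and Rpl23a lowest of the tested standard members at 36.7 and 39.4 CPM per kb. The value of Rps15a rests on a principal transcript of 5179 bases, and its level in COL was 190 CPM. Of the 50-base stretches in the Rpl23a transcript, 85.7% also occur in transcripts of other genes. Exons of other annotated genes, on either strand, cover 62.3% of its exonic bases, so the level of Rpl23a itself is uncertain. The order of the levels was alike in both tissues (Spearman's rho 0.97 across the 76 genes, a description over genes that share libraries and lengths). The log2 fold change had a rho of 0.25 with transcript length and of 0.11 with mean log2 CPM across these genes. Members with a tract by the above definition at an annotated start had a median log2 fold change of -1.14 (16 of 29 called). Those without had a median of -1.15 (12 of 30 called), and these groups sort members by the annotated start, not by their mRNAs. Members with and without CGGAAGT had medians of -1.16 (9 of 21 called) and -1.14 (19 of 38 called).

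Members at the edges of the distribution were described first among the large subunit proteins. Rpl37 (chr15:5116645-5119140, GRCm38), a zinc-binding protein of the large subunit, was at 86.1, 175, 187 and 144 CPM in SI1 to SI4 and at 465, 236, 592 and 486 CPM in COL1 to COL4. Every SI library was below every COL library. The log2 fold change was -1.59 ± 0.385 (SE), 3.00-fold higher in COL, with an adjusted p of 0.00958 (edgeR). Rplp1 belongs to the acidic stalk that recruits elongation factors to the ribosome, and it was at 120, 237, 310 and 223 CPM in SI and 698, 369, 681 and 595 CPM in COL, without overlap. Its log2 fold change was -1.40 ± 0.383 (edgeR adjusted p = 0.0180). For its stalk partner Rplp2, SI had 95.7, 180, 235 and 177 CPM and COL had 522, 232, 531 and 429 CPM, so that SI3 slightly exceeded COL2, and the log2 fold change was -1.32 ± 0.387 (edgeR adjusted p = 0.0249). The stalk base protein Rplp0, at 314 to 897 CPM in SI and 846 to 2314 CPM in COL, had a similar log2 fold change of -1.32 with a larger standard error of 0.487, and did not pass the threshold (edgeR adjusted p = 0.0636).

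Rpl5 and Rpl11 form the 5S ribonucleoprotein particle with 5S rRNA, which also binds Mdm2 when ribosome assembly is disturbed. Rpl5 was at 51.3, 142, 194 and 126 CPM in SI and at 358, 238, 287 and 249 CPM in COL. Rpl11 was at 66.1, 133, 177 and 124 CPM in SI and at 309, 173, 352 and 311 CPM in COL. For Rpl5 the tissues did not overlap, and for Rpl11 SI3 reached just above COL2. Both were called higher in COL, Rpl5 with a log2 fold change of -1.14 (edgeR adjusted p = 0.0487) and Rpl11 with -1.20 (edgeR adjusted p = 0.0306). Rpl3, which reaches towards the peptidyl transferase centre, varied widely between libraries. It was at 131, 716, 685 and 426 CPM in SI and at 978, 696, 1389 and 1691 CPM in COL, and SI2 exceeded COL2. Its log2 fold change of -1.28 ± 0.537 did not pass the threshold (edgeR adjusted p = 0.0983). Of the Rpl5 and Rpl3 stretches, 93.8% and 85.6% also occur in other transcripts.

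Rpl10, a late-joining protein that completes the large subunit, differed less, at 219, 268, 288 and 259 CPM in SI and 419, 257, 478 and 478 CPM in COL. The log2 fold change was -0.66 ± 0.316 (edgeR adjusted p = 0.144), and 85.4% of the Rpl10 stretches occur in other transcripts. Rpl13a, which has been linked to translational silencing in inflammation, was at 105, 484, 393 and 245 CPM in SI and at 635, 433, 456 and 424 CPM in COL. Its log2 fold change was -0.67 ± 0.448 (edgeR adjusted p = 0.297), and SI1 stood far below its other SI libraries. In Rpl13a, 35.4% of exonic bases also lie in another annotated gene. Rpl38, which is known from its role in translating Hox mRNAs, was at 71.4 to 144 CPM in SI and at 148 to 277 CPM in COL and was called with a log2 fold change of -0.96 (edgeR adjusted p = 0.0459). Rpl22, Rpl7 and Rpl39 had values of -1.05, -0.97 and -1.25, of which that of Rpl39 was called (edgeR adjusted p = 0.0325). At the threshold, Rpl8 was just inside and Rps15 just outside, with adjusted p values of 0.0490 and 0.0528 in edgeR and log2 fold changes of -1.24 and -1.18.

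In the small subunit, Rps28, Rps2 and Rps26 had the lowest log2 fold changes. Rps28, a small protein near the mRNA exit channel, was at 39.4, 94.3, 119 and 76.6 CPM in SI and at 277, 156, 302 and 243 CPM in COL. The groups were apart, and the log2 fold change was -1.57 ± 0.379 (edgeR adjusted p = 0.00923). Rps26, which contacts mRNA upstream of the start codon, was at 83.9, 188, 220 and 152 CPM in SI and at 465, 249, 501 and 482 CPM in COL, again apart, with a log2 fold change of -1.40 ± 0.384 (edgeR adjusted p = 0.0182). Rps2, which lies near the mRNA entry site, was at 24.4, 66.9, 76.4 and 63.4 CPM in SI and at 272, 154, 124 and 86.3 CPM in COL. COL4 was close to SI3 for this gene, and the log2 fold change was -1.46 ± 0.434 (edgeR adjusted p = 0.0262). Of the 50-base stretches in the Rps2 transcript, 71.3% also occur in transcripts of other genes, and all 71 of those genes are annotated as pseudogenes.

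Several small subunit members with known regulatory roles had values of similar size that did not pass the threshold. Rps6, the substrate of S6 kinases, was at 95.8, 291, 278 and 184 CPM in SI and at 386, 250, 494 and 514 CPM in COL, and SI2 and SI3 exceeded COL2. The log2 fold change was -0.96 ± 0.410 (edgeR adjusted p = 0.105), and 84.6% of the Rps6 stretches occur in other transcripts. Rps19, whose human counterpart is mutated in Diamond-Blackfan anaemia, was at 122 to 536 CPM in SI and 501 to 1036 CPM in COL, and its log2 fold change was -1.20 ± 0.479 (edgeR adjusted p = 0.0840). Rpsa, also known as the laminin receptor, had a value of -1.18 and Rps3, which also has a role in DNA repair, of -0.98. Rps25, a protein that viral internal ribosome entry sites need, had a value of -0.95. In these 3 genes SI was lower in 4, 3 and 4 of the 4 mice, respectively. Rps4x, which is X-linked in the mouse, was called with a log2 fold change of -1.28 (edgeR adjusted p = 0.0320).

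**Figure D3:**
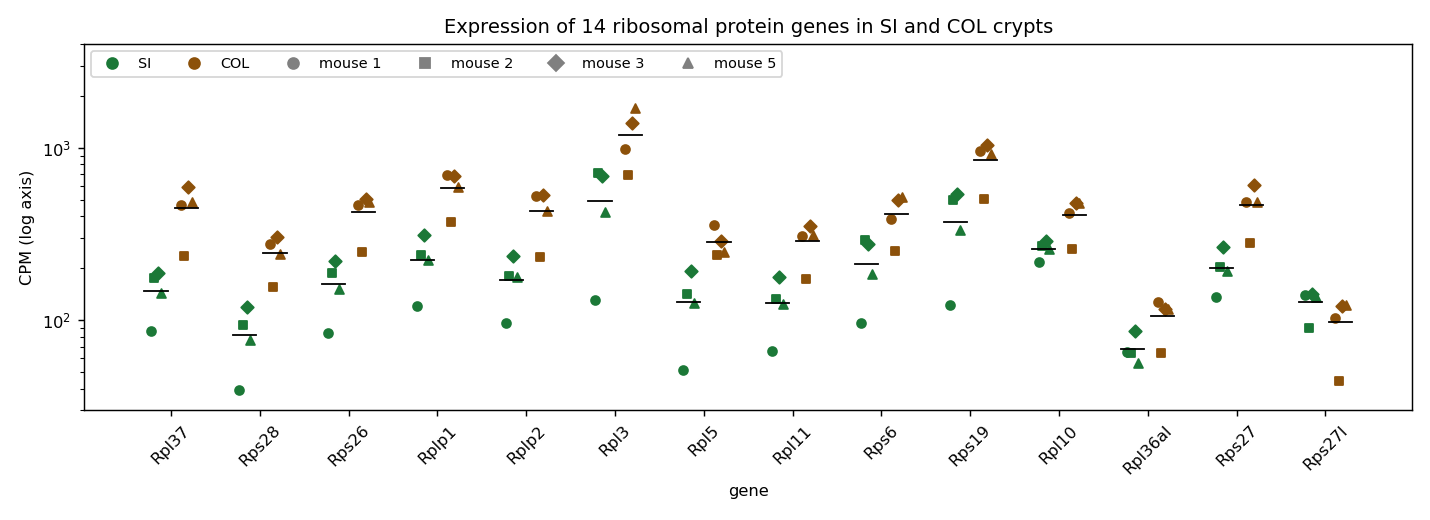
Points give the CPM (log axis) of 14 ribosomal protein genes in the 4 SI (green) and 4 COL (brown) libraries, with a shape for each donor mouse and a line at the mean of each tissue. SI1 (green circles) lies lowest in most genes and COL2 (brown squares) lowest among COL, whereas Rps27l lies at 90.0 to 142 CPM in SI and 44.3 to 122 CPM in COL.

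Rps27l, a paralog of Rps27 that is induced by p53, was the only member with a value above 0 in the main test. It was at 140, 90.0, 142 and 137 CPM in SI and at 103, 44.3, 121 and 122 CPM in COL. The tissues overlapped, and the log2 fold change of 0.38 ± 0.346 did not pass the threshold (edgeR adjusted p = 0.445). With scaling by library size alone it was -0.42. Its partner Rps27 was at 137, 203, 266 and 194 CPM in SI and at 481, 281, 605 and 484 CPM in COL, and its log2 fold change was -1.21 ± 0.353 (edgeR adjusted p = 0.0238). The ratio of Rps27l to Rps27 within a library, per transcript length, does not depend on the scaling. It was 0.709, 0.307, 0.370 and 0.487 in SI1 to SI4 and 0.147, 0.109, 0.139 and 0.174 in COL1 to COL4, without overlap and with the SI value above the COL value in each of the 4 mice. An exact two-sided permutation test over the 70 assignments of the libraries gave p = 0.0286, the smallest it can give, and 0.0381 after adjustment over the 4 paralog pairs tested. Since the libraries are paired by mouse, the signs can also be flipped within the 4 mice, which gave p = 0.125 (exact permutation over 16 assignments), the smallest that test can give, so that the ratio did not pass the threshold within mice. The tests of the ratios were added after their values had been seen. Of the Rps27 stretches, 98.6% also occur in other transcripts, so the level of Rps27 itself is uncertain.

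Rpl36al, an autosomal paralog of the X-linked Rpl36a, was at 65.6, 64.3, 85.9 and 56.5 CPM in SI and at 127, 64.8, 116 and 116 CPM in COL. Its log2 fold change was -0.64 ± 0.286 (edgeR adjusted p = 0.120), against -1.32 ± 0.406 for Rpl36a, which was called (edgeR adjusted p = 0.0301). The per-length ratio of Rpl36al to Rpl36a was 1.08, 0.333, 0.337 and 0.376 in SI and 0.254, 0.220, 0.242 and 0.306 in COL. SI was higher without overlap, with the same exact permutation p of 0.0286 (0.0381 adjusted), and of 0.125 within mice. SI1 stood far above the other SI libraries, and 85.5% of the Rpl36a stretches occur in other transcripts. Among the paralogs left out of the set, Rpl7l1 was at 48.4 to 68.1 CPM in SI and 35.2 to 87.8 CPM in COL, and its log2 fold change was 0.02. Its ratio to Rpl7 was 0.0584 to 0.115 in SI and 0.0328 to 0.0458 in COL (exact permutation p = 0.0286, 0.0381 adjusted, and 0.125 within mice), and 53.3% of the Rpl7 stretches are shared. Rpl22l1 had a log2 fold change of -0.75 (edgeR adjusted p = 0.150), and the ranges of its ratio to Rpl22 overlapped (exact permutation p = 0.200, and 0.125 within mice). Rpl39l, a testis paralog of Rpl39, had at most 1 count in any library.

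Members at low counts were treated apart. Rpl3l, a muscle and heart paralog, had at most 5 counts and Rpl10l, a testis paralog, at most 12, all in COL, and neither passed the filter. Rpl36-ps4 had 0 counts in all 8 libraries and Rpl9-ps1 at most 7. Rpl24, a standard member, had at most 14 counts, and 47.0% of its exonic bases lie in an overlapping gene on the same strand, Gm28037. Among the near-copies tested, Rps27rt was called with a log2 fold change of -1.17 at 2.13 to 5.12 CPM in SI and 6.28 to 8.91 CPM in COL. Rpl10-ps3 had -0.14 at 8.24 to 11.7 CPM in SI and 6.28 to 15.2 CPM in COL, and Rpl36a-ps1, at 1 to 31 counts, had the lowest value of all, -1.71 ± 0.888 (edgeR adjusted p = 0.171). Of the 39 members with under 50% of their stretches in other transcripts, 19 were called with a median of -1.18, and of the 44 with more, 23 with a median of -1.14. Across the standard members, the rho of the log2 fold change with the shared percentage was 0.01.

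The ribosomal proteins that the symbol rule leaves out were compared with the members. Rack1, the scaffold protein of the small subunit head, was at 124, 291, 349 and 273 CPM in SI and at 643, 354, 808 and 737 CPM in COL. It was called, with a log2 fold change of -1.29 ± 0.414 in favour of COL (edgeR adjusted p = 0.0369, and 0.0559 with the donor block), and only 0.930% of its stretches are shared with other transcripts. Fau, which encodes a ubiquitin-like protein fused to ribosomal protein S30, was at 669, 551, 600 and 574 CPM in SI and at 475, 342, 609 and 510 CPM in COL. The log2 fold change of 0.31 ± 0.323 did not pass the threshold (edgeR adjusted p = 0.519), and it was -0.47 with scaling by library size alone.

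Other lists of genes of the translation machinery had medians nearer to 0. For their counts of calls, 12.9% of all genes tested were called higher in COL and 15.5% in SI. Among 22 elongation factors and other genes with TOP mRNAs, 3 were called higher in COL and 0 in SI, with a median log2 fold change of -0.49. The called genes were Rack1, Eif3f, a subunit of the initiation factor eIF3 (-1.45), and Nap1l1, a histone chaperone (-2.01). The elongation factors Eef1a1 and Eef2 had values of -0.66 and -0.46 that did not pass the threshold. Among 16 initiation factors, only Eif2s2, the beta subunit of eIF2, was called higher in COL (-1.45), and the median was 0.09.

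Of 39 ribosome biogenesis genes, 3 were called higher in COL (Utp20 at -2.59, Wdr75 at -1.53 and Nop16 at -1.53) and 0 in SI, and the median was -0.54. The share called in COL was below that of all genes tested (12.9%) in this fit. With the donor block, Tsr1, Tcof1, Nop10 and Polr1a were called in COL as well. The share called in COL was then above that of all genes tested (12.8% in the blocked fit). Nucleolin (Ncl) and fibrillarin (Fbl) had values of -0.53 and -0.90 that were not called. Of 14 regulators, 2 were called higher in SI. They were Max, the dimerization partner of Myc (2.21, edgeR adjusted p = 0.0175), and Rps6kb2, an S6 kinase (0.74, edgeR adjusted p = 0.0306, and 0.0556 with the donor block), and the median was -0.15. For Max the tissues overlapped, at 281, 66.1, 302 and 554 CPM in SI and 26.6, 47.5, 104 and 81.4 CPM in COL. Myc itself, at 2.63, 26.8, 28.6 and 27.1 CPM in SI and 20.1 to 54.3 CPM in COL, had a value of -0.86 that was not called (edgeR adjusted p = 0.307), and SI1 stood far below the other libraries. Of 5 small nucleolar RNA host genes tested, Snhg6 was called higher in COL (-1.29), and the median was -0.63.

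The proteins of the mitochondrial ribosome, which translates the mitochondrially encoded mRNAs, had a median close to that of all genes tested. Of 76 tested, 4 were called higher in COL and 3 in SI, with a median of -0.18. Both counts are smaller shares than those of all genes tested (12.9% in COL and 15.5% in SI). Mrps6 (-1.76, edgeR adjusted p = 0.00118) and Mrpl52 (-1.43, edgeR adjusted p = 0.00244) were the most clearly higher in COL, and Mrps31 (1.20, edgeR adjusted p = 0.00664) and Mrpl15 (1.33, edgeR adjusted p = 0.00974) in SI. The remaining called genes were Mrpl3 and Mrps28 in COL and Mrps36 in SI. With the donor block, Mrpl3 did not pass the threshold (edgeR adjusted p = 0.0732) and Mrpl27 was called in SI.

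**Figure D4:**
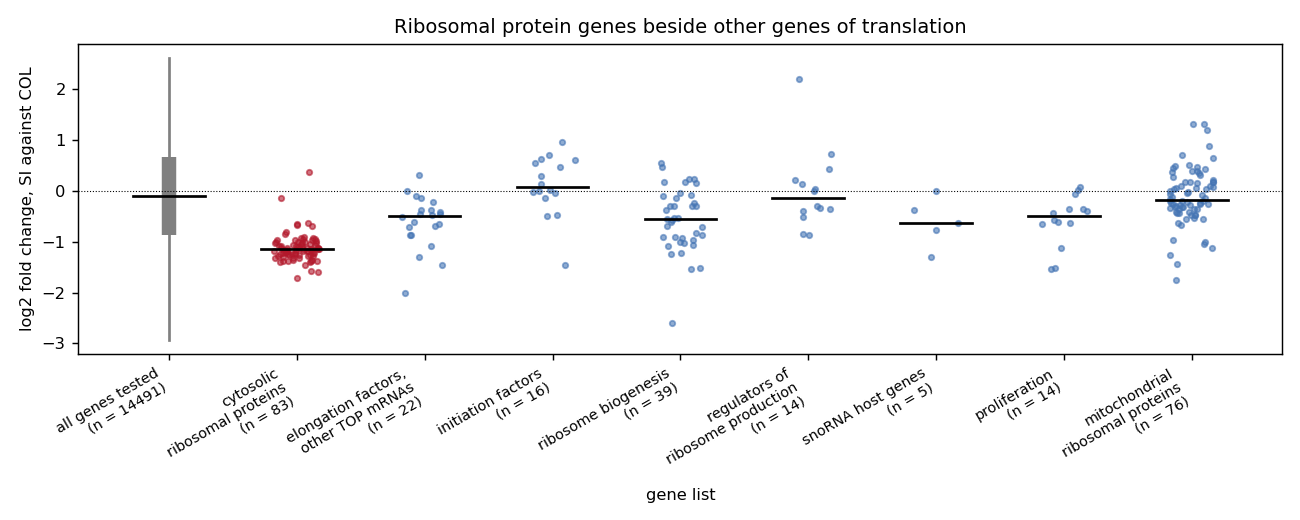
Points give the log2 fold change of SI against COL of each tested gene in 8 gene lists, black lines give medians, and the grey bar and line give the middle 50% and the 5th to 95th percentiles of all 14491 genes tested. The cytosolic ribosomal proteins sit around a median of -1.15, below the medians of the other 7 lists, which run from -0.63 to 0.09.

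**Figure D5:**
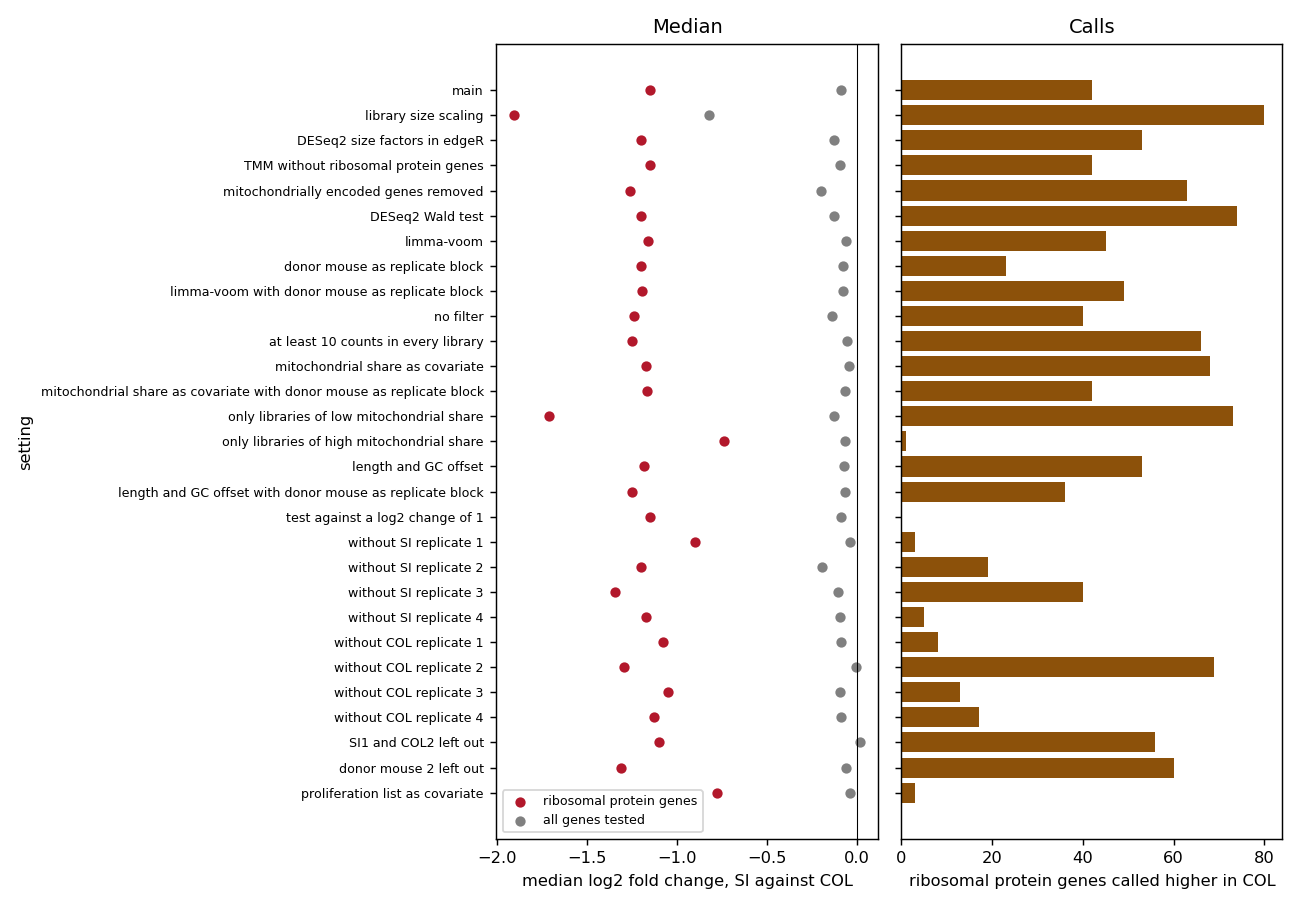
For each way of scaling, filtering, testing or leaving out libraries, the left panel gives the median log2 fold change of SI against COL for the ribosomal protein genes (red) and all genes tested (grey), and the right panel gives the number of ribosomal protein genes called higher in COL. The red points lie between -1.91 and -0.74 throughout, while the number of calls runs from 0, in the test against a log2 change of 1, to 80.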

How the data were processed

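Paired-end HiSeq4000 reads had been trimmed with Trimmomatic 0.36 and aligned and counted per gene with STAR 2.5.2b (versions from the submitters' processing notes). The authors deposited raw counts of reads per Ensembl gene, in 1 table for each tissue. The annotation release and the use of strand are not given in the sources used here. Symbols, coordinates and transcripts came from GENCODE vM21 (GRCm38), which held 45143 of the 45706 identifiers.

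The tissue and the donor mouse were taken from the sample labels. The study's figure numbers the female donors 1 and 4, whereas the donor of SI4 and COL4 is mouse 5 here. SI and COL were compared with edgeR 4.0.16 (R 4.3.3) by its quasi-likelihood test, with TMM, filterByExpr by tissue (a CPM worth 10 counts at the median depth, reached by 4 or more libraries, and a total of 15 counts) and Benjamini-Hochberg adjustment over 14491 genes. CPM values are TMM-scaled, and log2 CPM used a prior count of 2. Standard errors are the unshrunk log2 fold change divided by the square root of F. Total counts of 15969428 to 32908060 make counting error small beside the spread between mice for all but the low-count members. The libraries of a tissue came from separate mice.

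Same-numbered libraries share a donor mouse, which pairs them. Their deviations from the tissue means correlated across genes at -0.24, 0.39, -0.08 and 0.33 in mice 1, 2, 3 and 5. The main fit has no block because the study's methods name none, and the blocked count is given beside it.

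Alternatives were DESeq2 1.42.0, limma 3.58.1 (voom), other scalings and filters, mitochondrial share and proliferation as covariates, length and GC offsets, and leaving out libraries. The omission of SI1 with COL2, the omission of mouse 2, the proliferation covariate and the test of the paralog ratios within mice were chosen after seeing the data. The main fit and some alternatives were run on simulated counts with known changes, in which each gene varied independently of the others. No donor effect was simulated, so that run does not cover libraries in which many members move together. Stretches of 50 bases of the principal transcript were looked up in all other transcripts to find reads that several genes can share.

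Members and lists were chosen with earlier results of these data known. Named genes are the 5 highest and the 5 lowest log2 fold changes among members with a mean log2 CPM of at least 3, members with well-known roles, paralogs with their partners, Fau and Rack1, and the 2 called genes of lowest adjusted p per direction and list. The exceptions are the members just at the threshold or called in a fit with 5 or fewer calls, the low-count and near-copy members, Rps14, Rps15a, Rpl23a, Rpl27a, Rpl35a, Rpl36, Eef1a1, Eef2, Ncl, Fbl, Myc and the remaining list genes called in either fit, which were chosen after their values were seen. Some genes are counted in the totals but not reported here.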

Additional observations from a re-analysis of the deposited data

Results flagged for a closer look

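In 66 groups of 4 libraries (named members and related genes in each tissue, and the summed share of counts), 4 had a highest or lowest library whose gap to the next was above Dixon's 95% critical value for 4 samples, and 3.3 would be flagged by chance at 1 in 20. In COL2, the summed share of counts of the ribosomal protein genes (2.07%) and the level of Rps26 (249.0 CPM) stood apart as the lowest of the COL libraries. Rpl13a stood apart as the highest in COL1 (635.4 CPM), and Rps27l as the lowest in SI2 (90.0 CPM). COL2 was also the library with the highest mitochondrial share (50.8%) and the fewest counts (15969428), and the part of either in these values was not tested.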

How the results depend on the processing

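No ribosomal protein gene was called higher in SI under any alternative, and the median of the members lay between -1.91 and -0.74. Scaling by library size moved the median of all genes from -0.09 to -0.82 and that of the members to -1.91, leaving them 1.08 below all genes against 1.06 as reported. For each alternative whose counts moved by over 1.5 times, the order below is members called in COL, then mitochondrial ribosomal protein genes in COL and SI, then genes of the translation lists in COL and SI, with only moved counts given. Library size gave 80, 31 and 0, and 47 and 0, with 4788 genes called in COL and 1115 in SI over all genes, against 1863 and 2253. The DESeq2 Wald test gave 74, 8 in COL and 17 in COL, limma-voom 13 translation genes in COL with and without the replicate block, and the replicate block in edgeR 23 members and 1 translation gene in SI. With signs flipped within mice, none of the 3 paralog ratios passed the threshold (exact p = 0.125), and the block lost no call of a named gene other than those given in the text. No filter gave 17 and 1 translation genes. A minimum of 10 counts in every library gave 66, 8 in COL, and 13 and 1. Removing the mitochondrially encoded genes gave 7 in COL and 1 translation gene in SI, and the length and GC offset 7 in COL. The mitochondrial covariate gave 68, 7 and 5, and 6 translation genes in SI, and with the replicate block 5 mitochondrial ribosomal genes in SI. The libraries of low mitochondrial share gave 73, 18 and 5, and 26 in COL, and those of high share 1, 1 in COL, and 3 and 0, with 883 and 1381 over all genes. The test against a log2 change of 1 gave 0 members (2 at an unadjusted p under 0.05, edgeR), 1 and 0, and 1 and 0, with 983 and 1089 over all genes. Without SI1 and COL2 there were 7 in COL, and 13 and 1, without mouse 2, 7 in COL and 18 in COL, and with the proliferation covariate 3, 2 in COL, and 4 and 0. Members with under 50% shared stretches gave 19 because only 39 remain. Leaving out single libraries gave 3 to 69 members, 2 to 8 mitochondrial ribosomal genes in COL, and 4 to 16 translation genes in COL and 0 to 2 in SI. Direction changed for 4 of the named genes, none of them past the threshold in any fit. Library size gave -0.42 for Rps27l, -0.47 for Fau and -0.77 for Rpl7l1. Rpl7l1 was -0.00163 with DESeq2 size factors, -0.0620 without mitochondrially encoded genes, -0.00181 in DESeq2, -0.0435 with no filter, -0.0822 with at least 10 counts, -0.30 at low mitochondrial share, -0.0344 with the length and GC offset, -0.15 without SI1 and COL2, -0.0161 without mouse 2 and -0.14 to 0.26 without single libraries. Rpl10-ps3 was 0.37 at high mitochondrial share and -0.30 to 0.0716 without single libraries. The causes were not tested.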
